A study of Mus musculus with 26 samples.

Results

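Transcript levels of 9 genes that restrain myogenic transcription were described in regenerating mouse muscle and in differentiating C2C12 myoblasts. The genes were Id1, Id2, Id3, Twist1, Twist2, Snai1, Snai2, Msc and Bhlhe40, chosen by symbol, and all 9 were listed in both expression tables, among 53465 genes in the muscle table and 55487 in the C2C12 table. Tibialis anterior (TA) muscles of 6-week-old male C57BL/6J mice, per the study's methods, were injected with cardiotoxin (CTX, a venom peptide that destroys myofibres), and 10 libraries covered days 0, 1, 3, 5 and 10, with 2 libraries per day. Whether day 0 stands for untouched or saline-injected muscle was not given in the sources used here. Another 8 libraries came from C2C12, an immortalised mouse myoblast line, carrying either a control construct or Cas9M3, a dCas9-KRAB repressor directed at the Mettl3 promoter, with 2 libraries each in growth medium (GM, labelled D0) and on the third day of low-serum differentiation medium (DM3, labelled D3). What the control construct carried, and whether the lines were clones or pools, was likewise not given. Nothing in the labels says that replicates were separate animals or cultures, so the tests measure the spread between libraries, which may be technical. Day 3 is an exception, as its libraries differ in Xist and Y-linked transcripts and so came from different animals.

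These proteins act at the same DNA elements as the muscle-determining factors. MyoD and its relatives pair with E proteins and activate muscle genes through E-boxes (CANNTG). Id proteins are helix-loop-helix proteins without a DNA-binding region that occupy E proteins, and they are classical targets of BMP and Smad signalling. Twist1 and Twist2 are basic helix-loop-helix (bHLH) proteins of mesenchymal cells that interfere with MyoD. Msc (musculin, also MyoR) is a bHLH repressor of myogenic lineages, and Bhlhe40 (Dec1) is a bHLH repressor tied to hypoxia and the circadian clock. Snai1 and Snai2 are zinc-finger repressors that bind the E-box variant CACCTG.

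Promoter stretches in RefSeq (GRCm38.p6) were found for 5 of the 9 genes: Id2, Id3, Twist1, Twist2 and Snai1. The 250 bases before the annotated start are shown for Snai1 and Twist1, whose transcripts rose together on day 3 of regeneration, 5′ to 3′ on the gene's strand. Capitals mark the CACCTG match in Snai1 and, in Twist1, the match to TGACG, a part of the cAMP response element. This match reads CGTCA on the strand shown.
Snai1, chr2:167537945-167538194, plus strand: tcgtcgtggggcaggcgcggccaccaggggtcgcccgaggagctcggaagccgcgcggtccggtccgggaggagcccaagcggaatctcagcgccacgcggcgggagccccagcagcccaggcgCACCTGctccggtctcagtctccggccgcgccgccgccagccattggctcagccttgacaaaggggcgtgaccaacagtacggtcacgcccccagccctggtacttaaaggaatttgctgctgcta
Twist1, chr12:33957421-33957670, plus strand: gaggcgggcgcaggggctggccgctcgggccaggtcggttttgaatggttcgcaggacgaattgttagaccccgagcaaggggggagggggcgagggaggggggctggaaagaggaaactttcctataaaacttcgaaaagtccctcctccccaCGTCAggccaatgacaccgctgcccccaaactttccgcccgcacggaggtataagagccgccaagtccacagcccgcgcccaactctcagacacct
The Snai1 stretch held 1 CACCTG, beginning 126 bases before the start, and this was also its 1 match to CANNTG. The Twist1 stretch held no match to CANNTG and 1 to TGACG, beginning 96 bases before the start. Counting both strands, CANNTG occurred in 66.22% of 32851 promoter stretches of this length, CACCTG, which is a form of CANNTG, in 17.22%, TGACG in 17.77% and GGCGCC, a GC element of BMP-responsive promoters, in 9.59%. Id2 held 1 CANNTG and 1 GGCGCC, Id3 held 1 TGACG, and Twist2 held none of the 4 motifs. These are letter matches and do not say that a factor binds there.

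Several libraries stood apart, and this bears on the muscle comparisons. Xist, transcribed from the inactive X chromosome of females, was at 5.77 to 10.0 FPKM (fragments per kilobase of gene, scaled per library) in 5 libraries, both of day 0, both of day 10 and replicate 2 of day 3, and at most 0.152 in the other 5. The Y-linked Ddx3y was at most 0.101 FPKM in the first 5 and at least 6.10 in the others, so 5 libraries went against the stated male sex. Days 0 and 10 therefore differ from days 1 and 5 in this respect as well, and only day 3 holds a library of each kind. In the C2C12 table, replicate 2 of the control cells in GM had 1.37% of its reads on the small RNA gene Gm23935. The other replicate 2 libraries had 0.185% to 0.337%, and the replicate 1 libraries 0.0203% to 0.0309%. Reads on genes were 25170000 to 29570000 in replicate 1 libraries and 14230000 to 18900000 in replicate 2 libraries, so the replicate number goes with depth and composition. Mettl3, the gene targeted by Cas9M3, was at 4.68 to 5.65 FPKM in control cells and 0.0805 to 0.331 in Cas9M3 cells. It ran from 3.59 to 4.97 FPKM in muscle. Reads on genes, recovered from the steps between low values, were 14170000 to 18820000 per muscle library and 14230000 to 29570000 per C2C12 library. The FPKM scaling did not follow these totals. In replicate 1 of day 0, with 16780000 reads, 1 read on 1 kb was 0.0803 FPKM. In replicate 1 of day 3, with 14330000 reads, it was 0.0507. Id1 had 218 and 219 reads on day 0 and 509 and 387 at day 3. All differences rest on this scaling, and differences per read were not tested.

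The group was expressed at unlike levels in uninjured muscle. At day 0, Bhlhe40 stood highest at 30.9 ± 7.79 FPKM (SD, n = 2), followed by Id1 at 14.6 ± 0.669 and Id3 at 13.5 ± 1.88, whose ranges overlapped. Id2 came next at 2.03 ± 0.777 FPKM. Snai2 (0.984 ± 0.329), Snai1 (0.599 ± 0.0632), Twist1 (0.549 ± 0.0606) and Msc (0.463 ± 0.343) lay between 0.221 and 1.22 FPKM. Snai1, Twist1 and Msc overlapped, and both Snai2 libraries lay above them. Twist2 was at 0 and 0.189 FPKM, or 0 and 8 reads.

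On day 3 after CTX, 6 of the 8 repressors tested differed from day 0: Snai1, Msc, Id2, Twist1 and Snai2 rose and Bhlhe40 fell. A gene was tested if it reached 0.5 FPKM in at least 2 libraries, which 16753 genes and all members but Twist2 did in muscle. Calls were made at an adjusted p of at most 0.05 in a limma fit on log2(FPKM + 0.1), a scale that understates the changes of low genes. Day 3 was a day of broad change, with 24.5% of the tested genes called higher and 24.3% called lower, and the 5 and 1 members are to be read against those shares. The median log2 fold change was 1.47 over the 8 members and 0.01 over all tested genes. With the study's additional threshold of a log2 fold change of 2, Snai1 and Msc remained called, where 13.3% of all tested genes did. In whole muscle, more cells of a type and more RNA per cell cannot be told apart. Without replicate 1 of day 0 the count was 3, as Id2 (adjusted p = 0.0572), Snai2 (0.121) and Bhlhe40 (0.129) dropped out. It was 4 without either day 3 library or with a term for Xist, and 7, Id3 joining, without either day 1 library. Snai1, Msc and Twist1 were called in each of these fits.

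Snai1 (chr2:167538195-167542814, plus strand) had the largest difference between days 0 and 3. It was at 0.644 and 0.554 FPKM on day 0, 2.41 and 1.22 at day 1, 7.59 and 6.92 at day 3, 2.50 and 2.78 at day 5, and 0.705 and 1.40 at day 10, which is 12 to 243 reads per library. Both day 3 libraries, 1 with and 1 without Xist, stood above every other library. The day 3 difference from day 0 was 3.40 ± 0.36 on the log2 scale (SE, adjusted p = 0.000481), or 10.5-fold. Between days 1 and 3 it rose by 2.01 ± 0.36 (adjusted p = 0.00747), and between days 3 and 10 it fell by 2.74 ± 0.36 (adjusted p = 0.00148). Levels over days ran in the order day 3, day 5, day 1, day 10 and day 0, and the ranges of days 1 and 10 overlapped.

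Msc (chr1:14753346-14755992, minus strand), the musculin repressor, had the next largest difference between days 0 and 3, and the largest between days 1 and 3. Its 10 libraries read 0.221 and 0.706 FPKM on day 0, 0.192 and 0.329 at day 1, 3.28 and 4.14 at day 3, 1.86 and 1.97 at day 5, and 0.674 and 1.18 at day 10. Days 3 and 5 lay above all libraries of the other days, and days 0, 1 and 10 overlapped in part. It rose by 2.90 ± 0.46 from day 0 to day 3 (adjusted p = 0.00189) and by 3.42 ± 0.46 from day 1 (adjusted p = 0.00339). The fall from day 3 to day 10 was -1.93 ± 0.46 (adjusted p = 0.0138). Msc overlaps the antisense gene Gm9947, and whether the reads were counted by strand was not given in the sources used here, so reads of the pair cannot be told apart.

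Snai2 (chr16:14705852-14709385, plus strand), the second Snail factor, peaked later than Snai1 by its means. It was at 0.751 and 1.22 FPKM on day 0, 0.688 and 0.600 at day 1, 2.37 and 2.63 at day 3, 2.72 and 2.95 at day 5, and 0.724 and 1.67 at day 10. The libraries of days 3 and 5 did not overlap with those of any other day, and days 0 and 10 overlapped. The log2 differences from day 0 were 1.29 ± 0.36 at day 3 (adjusted p = 0.0206) and 1.47 ± 0.36 at day 5 (adjusted p = 0.0270), and days 5 and 3 differed by 0.17 ± 0.36 (95% interval -0.67 to 1.02).

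Twist1 (chr12:33957671-33959829, plus strand), the mesenchymal bHLH factor, was low throughout. It gave 0.592 and 0.506 FPKM on day 0, 0.558 and 0.748 at day 1, 1.87 and 2.00 at day 3, 1.81 and 1.06 at day 5, and 0.903 and 0.741 at day 10, from 11 to 66 reads. Day 3 stood above all other libraries, and days 0 and 1 overlapped. The rise to day 3 was 1.65 ± 0.28 (adjusted p = 0.00266), or 3.14-fold. Its paralog Twist2 (chr1:91801461-91848028, plus strand) stayed between 0 and 0.447 FPKM, with 22 and 23 reads on day 3 and 17 and 28 at day 5, below the level needed for a test, and it overlaps the antisense gene Gm29100.

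The 3 Id genes, Id1 (chr2:152736251-152737410, plus strand), Id2 (chr12:25093799-25097140, minus strand) and Id3 (chr4:136143497-136145755, plus strand), behaved unequally. Id2 rose from 1.48 and 2.58 FPKM on day 0 to 6.92 and 6.45 at day 3, a log2 difference of 1.72 ± 0.39 (adjusted p = 0.00839). Its other libraries were at 6.56 and 3.34 at day 1, 4.25 and 3.56 at day 5, and 1.71 and 2.88 at day 10, so that days 1 and 3 overlapped. Id1 was at 15.1 and 14.1 FPKM on day 0, 25.9 and 13.9 at day 1, 22.2 and 16.5 at day 3, 12.3 and 10.2 at day 5, and 8.80 and 9.29 at day 10. Both day 3 libraries of Id1 exceeded day 0, yet the difference of 0.39 ± 0.28 did not pass (adjusted p = 0.290). Id3 gave 12.1 and 14.8, 23.9 and 14.2, 22.9 and 18.6, 17.1 and 18.4, and 13.5 and 13.4 FPKM on days 0, 1, 3, 5 and 10, with a day 3 difference of 0.62 ± 0.24 (adjusted p = 0.0655).

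Bhlhe40 (chr6:108660629-108666925, plus strand) went the other way. It stood at 36.4 and 25.4 FPKM on day 0, 33.2 and 17.3 at day 1, 10.7 and 10.6 at day 3, 13.4 and 8.85 at day 5, and 28.6 and 12.8 at day 10. Day 0 lay above days 3 and 5 in every library, and day 10 overlapped with day 0 and with day 5. It fell by 1.50 ± 0.44 at day 3 (adjusted p = 0.0247) and by 1.48 ± 0.44 at day 5 (adjusted p = 0.0458). The gene overlaps the antisense gene 0610040F04Rik.

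**Figure D1:**
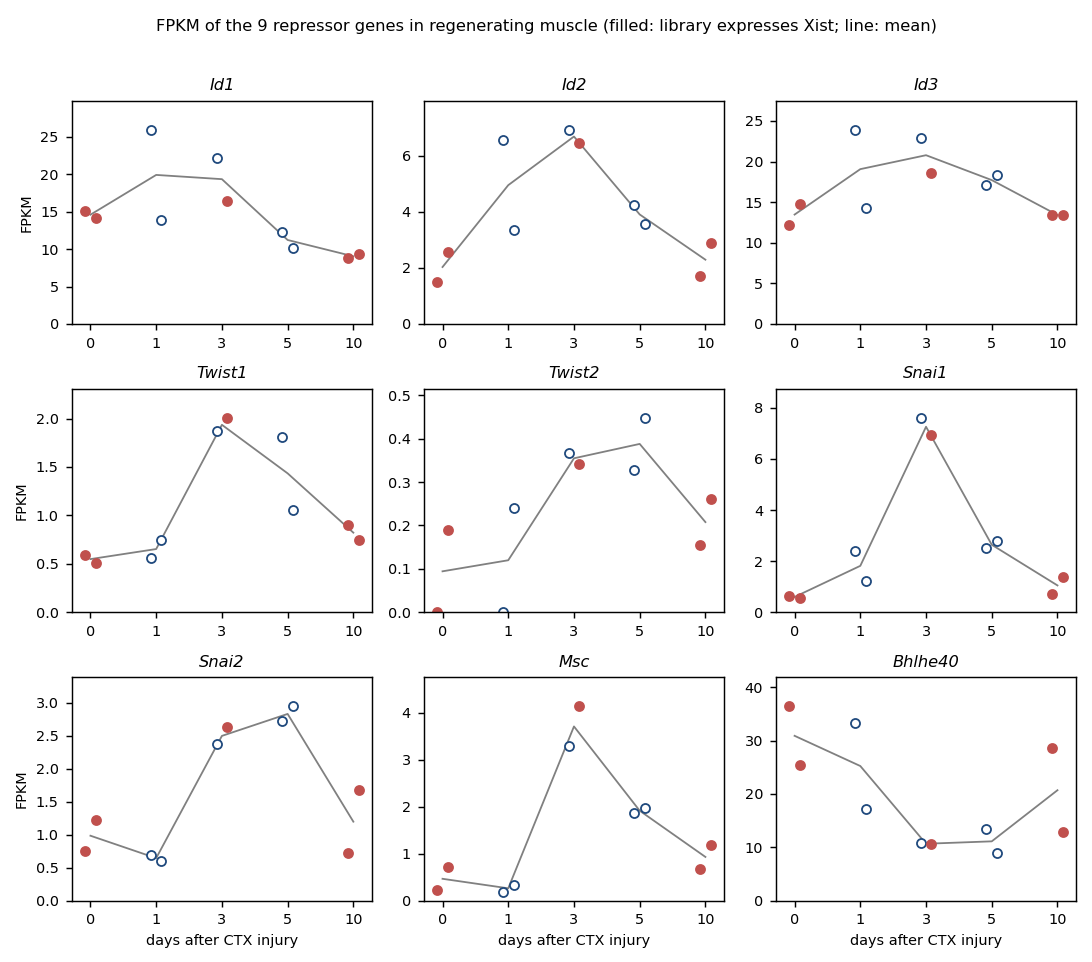
FPKM of each of the 9 genes (y axis, linear from 0, scaled per gene) in the 2 libraries of each day after CTX injury (x axis, days, not to scale), with a line through the means and filled points for libraries that express Xist. Snai1, Msc, Twist1 and Id2 have their highest mean on day 3, Snai2 at day 5 at 2.83 FPKM, and Bhlhe40 its lowest on day 3 at 10.7 FPKM.

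Day 1 separated few members from day 0. No member was called by limma at an adjusted p of at most 0.05, against 6.0% of all tested genes. At an unadjusted p under 0.05 there were 2 members, Snai1 with a log2 difference of 1.38 ± 0.36 (adjusted p = 0.0643) and Id2 with 1.22 ± 0.39 (adjusted p = 0.0995), and 4493 genes. Without replicate 2 of day 1, 3 members were called, Snai1 and Id2 among them, and without either day 10 library Snai1 alone was (adjusted p = 0.0469).

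From day 1 to day 3, 4 members rose and none fell, where 14.5% of tested genes were called higher and 16.6% lower. They were Snai1, Msc, Snai2 with 1.81 ± 0.36 (adjusted p = 0.0105) and Twist1 with 1.45 ± 0.28 (adjusted p = 0.00949). With the fold threshold Snai1 and Msc remained, against 6.02% of genes. No Id gene was called in this step. Bhlhe40 differed by -1.16 ± 0.44 (adjusted p = 0.0823). A term for Xist left 1 member called, Msc, and without replicate 2 of day 3 there were 2.

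On day 5, 5 members still differed from day 0, where 12.9% of tested genes were called higher and 12.5% lower. Higher were Snai1 at 1.97 ± 0.36 (adjusted p = 0.0148), Msc at 1.99 ± 0.46 (adjusted p = 0.0221), Snai2 and Twist1 at 1.20 ± 0.28 (adjusted p = 0.0236), and Bhlhe40 was lower. Id2, at 0.95 ± 0.39, did not pass (adjusted p = 0.106). The day 5 count is fragile. With a term for Xist, or without replicate 1 of day 0 or either day 5 library, it was 0, and it was 3 without replicate 2 of day 0. Each p-value with a single library in a group assumes that this library varies like the other groups.

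Between days 3 and 5, Snai1 was the 1 member called, with -1.42 ± 0.36 (adjusted p = 0.0426), where 5.46% of tested genes were lower and 7.23% higher. Both day 5 libraries, at 2.50 and 2.78 FPKM, lay below both of day 3. The call was lost without any 1 library of days 0, 3 or 5 (adjusted p from 0.0616 to 0.189) and with the Xist term (adjusted p = 0.179), and without either day 1 library Id1 was called as well. Id1 itself differed by -0.77 ± 0.28 (adjusted p = 0.119).

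By day 10, most of the group stood below its day 3 level. Against day 3, 6 members were lower and none higher, where 18.8% of tested genes were called lower and 19.1% higher: Snai1, Msc, Id2 at -1.55 ± 0.39 (adjusted p = 0.0171), Twist1 at -1.15 ± 0.28 (adjusted p = 0.0161), Snai2 at -1.10 ± 0.36 (adjusted p = 0.0461) and Id1 at -1.07 ± 0.28 (adjusted p = 0.0209). With the fold threshold Snai1 remained, against 8.28% of genes. Id3 differed by -0.62 ± 0.24 (adjusted p = 0.0780). Without either day 3 library or replicate 1 of day 10 the count was 2, and with the Xist term it was 1, Snai1. Snai2 dropped out without either day 5 library. Without replicate 2 of day 10, Id1 (-1.11) and Twist1 (-1.02) dropped out and Bhlhe40 (1.42) joined as higher.

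Against day 0, no member was called on day 10 by limma, and 0.00597% of tested genes were. Id1 was the 1 member with an unadjusted p under 0.05, as were 1697 genes, and its difference was -0.69 ± 0.28 (adjusted p = 0.479). Both day 10 libraries of Id1, 8.80 and 9.29 FPKM, lay below both of day 0. Msc differed by 0.97 ± 0.46 (95% interval -0.09 to 2.03) and Bhlhe40 by -0.67 ± 0.44 (95% interval -1.69 to 0.36). The comparisons with day 0 share its 2 libraries, and those with day 3 share theirs.

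**Figure D2:**
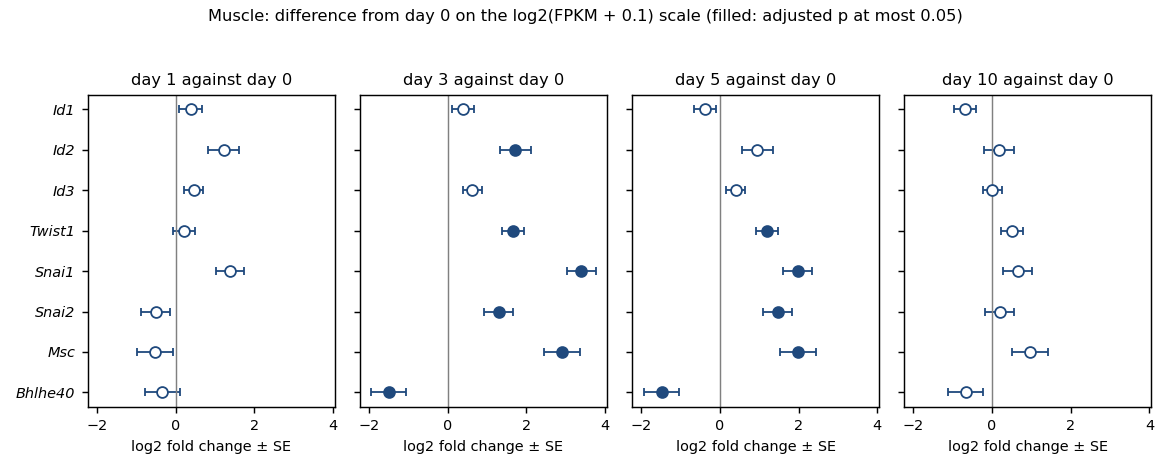
Log2 fold change against day 0 (x axis, ± SE, on the log2(FPKM + 0.1) scale) of the 8 tested genes on days 1, 3, 5 and 10, filled where the adjusted p is at most 0.05. On day 3, Snai1 at 3.40 and Msc at 2.90 lie furthest to the right, and Bhlhe40 at -1.50 is the 1 filled point on the left.

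Cell type markers moved over the same days. Summed FPKM of the 5 macrophage markers in the muscle table, of 6 listed, was 41.7 to 84.8 at day 0, 304 to 359 at day 1, 1388 to 1408 at day 3, 397 to 439 at day 5 and 60.7 to 243 at day 10. That of 6 fibroblast and fibro-adipogenic progenitor markers was 93.8 to 216 at day 0, 86.1 to 221 at day 1, 694 to 775 at day 3 and 818 to 967 at day 5. Satellite cell markers ran from 12.5 to 21.1 at day 0 and 71.0 to 83.3 at day 3, and myofibre markers from 48583 to 55052 and 12089 to 15465. Most of the satellite cell sum was Myod1, at 19.7 and 11.3 FPKM on day 0 and 67.1 and 78.7 at day 3. Pax7 was at 0.836 and 0.843 FPKM on day 0 and 2.21 and 2.24 at day 3. Most of the macrophage sum of day 3 was Lyz2, at 1069 and 1060 FPKM. Most of the fibroblast sum of day 3 was Col1a1, at 350 and 354 FPKM, and Col3a1, at 238 and 284. The sums are therefore not measures of cell number. Endothelial markers were lower on day 3, at 36.3 to 46.5, than on day 0, at 65.5 to 86.0. The part of these shifts in the repressors' levels was not tested.

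The partners and opponents of the repressors were measured in the same fit. Of the 3 E proteins, Tcf3 and Tcf12 rose on day 3, by 0.53 ± 0.17 (adjusted p = 0.0359) and 0.80 ± 0.18 (adjusted p = 0.00815), and Tcf4 had 0.48 ± 0.18 (adjusted p = 0.0602). Of the 4 myogenic bHLH activators, 3 rose, with Myog at 4.73 ± 0.39 (adjusted p = 0.000285) and Myod1 at 2.28 ± 0.45 (adjusted p = 0.00468). The share of all tested genes called higher on day 3 was 24.5%, to be set beside both counts. Summed Id1, Id2 and Id3 FPKM divided by summed E protein FPKM was 3.52 and 2.99 at day 0, 5.02 and 3.03 at day 1, 3.62 and 3.05 at day 3, 2.60 and 2.28 at day 5, and 2.35 and 2.33 at day 10. Day 3 lay above days 5 and 10 and overlapped with day 0.

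Of 25 listed BMP and Smad genes, 21 were tested, and on day 3 against day 0 there were 3 higher and 5 lower, with a list median of -0.27. Among all tested genes 24.5% were higher and 24.3% lower, so the list's shares were near the background. Smad6, an inhibitory Smad, fell by 1.98 ± 0.42 (adjusted p = 0.00668) and the BMP antagonist Nog by 1.63 ± 0.36 (adjusted p = 0.00809). Fstl1, a follistatin-like secreted protein, rose by 2.62 ± 0.57 (adjusted p = 0.00743) and Fst, follistatin, by 1.42 ± 0.32 (adjusted p = 0.00882).

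Genes whose FPKM tracked a member most closely over the 10 muscle libraries were ranked among 12277 genes, as a description without a test, since the libraries share days. Snai1 was followed by Cdc42se1 (Pearson r = 0.9953) and Tnfaip8l2 (0.9892), Msc by Plppr2 (0.9901) and C1qtnf3 (0.9895), and Snai2 by Nespas (0.9814) and Gxylt2 (0.9762). Id2 lay closest to Slc35f6 (0.9861) and Ywhaz (0.9850), Bhlhe40 to Kctd6 (0.9843) and Timm13 (0.9749), and Twist1 to BC001981 (0.9607) and Izumo4 (0.9579). The nearest genes to Id1 were Il1b (0.9618) and Ercc3 (0.9502), and to Id3 Hprt (0.9537) and Sf3a3 (0.9482).

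Of the 9 repressors, 6 reached 0.5 FPKM in every muscle and every C2C12 library, and Twist1, Msc and Twist2 did not. Msc and Twist1, both above 1.8 FPKM in each muscle library of day 3, gave 0 to 7 reads and 0 to 1 read per C2C12 library and could not be tested. Twist2, nearly silent in muscle, was at 2.45 to 10.3 FPKM. The tables were scaled separately, so levels are compared across them only in these broad terms. In GM control cells the order by mean was Id3 at 240 ± 163 FPKM (SD, n = 2), Id1 at 56.3 ± 14.0, Snai2 at 44.7 ± 8.85, Bhlhe40 at 32.7 ± 3.90, Id2 at 30.4 ± 23.6, Snai1 at 20.0 ± 5.16 and Twist2 at 8.30 ± 2.84. Neighbours overlapped except for Id3 and Id1, Snai2 and Bhlhe40, and Snai1 and Twist2.

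When control cells went from GM to DM3, Id1 fell 7.43-fold and was the 1 member called. It was at 46.4 and 66.2 FPKM in GM and 6.44 and 8.44 in DM3, a log2 difference of -2.89 ± 0.29 (adjusted p = 0.0223). Of 13824 tested genes, 0.376% were called lower and 0.767% higher, and 0.694% passed the fold threshold, as Id1 did. The replicate number pairs the C2C12 libraries (deviations from the group means correlated at 0.2785 to 0.6795 in all 6 pairs of groups), and a fit with the replicate as a block called Id1, Id3 and Twist2 lower, with 1.11% of genes lower and 1.87% higher.

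Id3 was at 125 and 355 FPKM in GM and 33.5 and 46.6 in DM3, with -2.41 ± 0.58 (adjusted p = 0.117, and 0.0265 with the block). Twist2 was at 6.29 and 10.3 in GM and 2.45 and 3.35 in DM3, with -1.46 ± 0.33 (adjusted p = 0.107, and 0.0230 with the block). For each, both DM3 libraries lay below both GM libraries. Id2 read 13.7 and 47.1 in GM and 8.11 and 9.49 in DM3, and Snai2 38.5 and 51.0 against 23.1 and 24.8, likewise without overlap, but they passed in neither fit (adjusted p = 0.273 and 0.183, with the block 0.0916 and 0.0954). Snai1 overlapped, at 23.7 and 16.4 against 14.0 and 16.7, and Bhlhe40 was at 29.9 and 35.4 against 38.8 and 37.2. Thus 5 of 7 members were lower without overlap, where 22.4% of all tested genes were, and 1 was higher, where 24.8% were. The GM control libraries set the size of these differences. Without replicate 1 Id3 had -3.16 and Id2 -2.41, and without replicate 2, rich in Gm23935, Id3 had -1.66 and Id2 -0.64. The libraries also differed in muscle transcripts, with summed myofibre markers at 117 FPKM in replicate 1 and 13.0 in replicate 2. In Cas9M3 GM this sum was 76.0 and 4.61, with Id3 at 122 and 254 and Id2 at 17.1 and 38.8. The part of Gm23935 content or muscle transcripts in the Id levels was not tested.

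The Id1 call in control cells was lost without any 1 of the DM3 libraries of either line, where no member was called (adjusted p of Id1 from 0.0947 to 0.290). Without replicate 1 of GM control cells 5 members were called. Without the replicate rich in Gm23935 the Id1 difference was -2.64 and remained called.

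In Cas9M3 cells, no member was called by limma between GM and DM3, where 0.0289% of tested genes were. Id1 was at 57.6 and 86.8 FPKM in GM and 22.2 and 27.2 in DM3, without overlap, and its difference of -1.52 ± 0.29 was the 1 among members with an unadjusted p under 0.05, as were 1748 genes (adjusted p = 0.113, and 0.0582 with the block). It passed without either GM control library (adjusted p = 0.0417 and 0.0425). Id3 was at 122 and 254 against 97.0 and 139, with overlap, Id2 at 17.1 and 38.8 against 13.8 and 18.0, Twist2 at 7.41 and 9.66 against 5.26 and 7.57, and Snai2 at 45.6 and 72.5 against 58.4 and 51.7. Snai1 was at 25.1 and 18.2 against 13.2 and 18.2, and Bhlhe40 at 30.7 and 32.5 against 28.1 and 31.5.

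**Figure D3:**
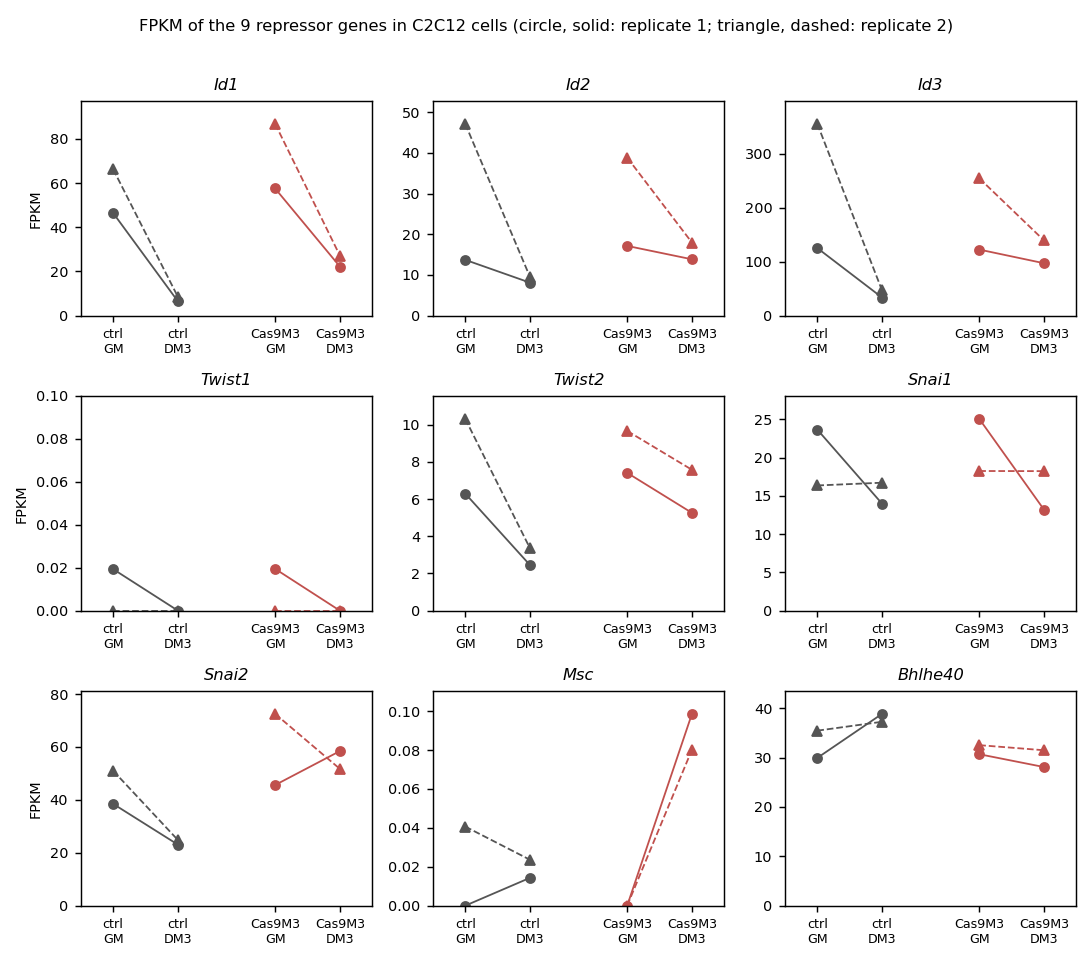
FPKM of each of the 9 genes (y axis, linear from 0, scaled per gene) in C2C12 control and Cas9M3 cells in GM and DM3, with replicate 1 as circles on solid lines and replicate 2 as triangles on dashed lines. Id1 reaches 6.44 and 8.44 FPKM in control DM3 libraries and 22.2 and 27.2 in Cas9M3 DM3 libraries, and Twist1 and Msc stay at or near 0.

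At GM, Cas9M3 and control cells did not differ detectably in any member. No member and 0.00% of tested genes were called by limma, and no member and 1244 genes had an unadjusted p under 0.05. The targeted gene Mettl3 itself, at -4.10 ± 0.40, was not called here (limma adjusted p = 0.188, and 0.158 with the replicate block). The lack of calls at GM therefore does not show that the members were unchanged. The Id1 difference was 0.35 ± 0.29 (95% interval -0.36 to 1.06), and for Id3 and Id2 the intervals, -1.65 to 1.14 and -1.49 to 1.54, were too wide to exclude a change of 1 log2 unit in either direction.

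At DM3, Id1 was higher in Cas9M3 cells, at 22.2 and 27.2 FPKM against 6.44 and 8.44 without overlap. It was the 1 member called, by 1.72 ± 0.29 or 3.30-fold (adjusted p = 0.0484), where 1.29% of tested genes were called higher and 0.687% lower. With the replicate block, Id1 (adjusted p = 0.0158) and Twist2 (1.11 ± 0.17, adjusted p = 0.0306) were higher, with 2.31% of genes higher and 1.35% lower. Twist2 was at 5.26 and 7.57 FPKM in Cas9M3 and 2.45 and 3.35 in control cells. Id3, at 97.0 and 139 against 33.5 and 46.6, differed by 1.55 ± 0.58 (adjusted p = 0.235, and 0.0525 with the block), and Snai2, at 58.4 and 51.7 against 23.1 and 24.8, by 1.20 ± 0.27 (adjusted p = 0.0868, and 0.0555 with the block). For Id1, Twist2, Id3 and Snai2 both Cas9M3 libraries lay above both control libraries, and so they did for Id2, with 0.84 ± 0.63 (adjusted p = 0.596). These were 5 of 7 members, where 29.3% of all tested genes were higher without overlap, and Bhlhe40 was lower without overlap, where 34.2% were. Snai1 differed by 0.02 ± 0.28 (95% interval -0.67 to 0.71) and Bhlhe40 by -0.35 ± 0.17 (adjusted p = 0.355).

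The DM3 count was 0 without any 1 of the DM3 libraries or either GM library of Cas9M3 cells (adjusted p of Id1 from just above 0.05 to 0.429) and 2, Id1 and Snai2, without either GM library of control cells. With the block and without the replicate rich in Gm23935 it was 4, Id3 and Snai2 joining Id1 and Twist2.

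Whether the Cas9M3 difference at DM3 exceeded that at GM was tested directly. The difference of the differences was 1.37 ± 0.42 for Id1 (adjusted p = 0.436, and 0.180 with the block), 1.81 ± 0.82 for Id3 (adjusted p = 0.595), 1.04 ± 0.47 for Twist2 (adjusted p = 0.595) and 0.82 ± 0.38 for Snai2 (adjusted p = 0.605). No member and 0.00% of genes passed in limma, and Id1 and 1198 genes had an unadjusted p under 0.05. The DM3 results are therefore not shown to be particular to differentiation.

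**Figure D4:**
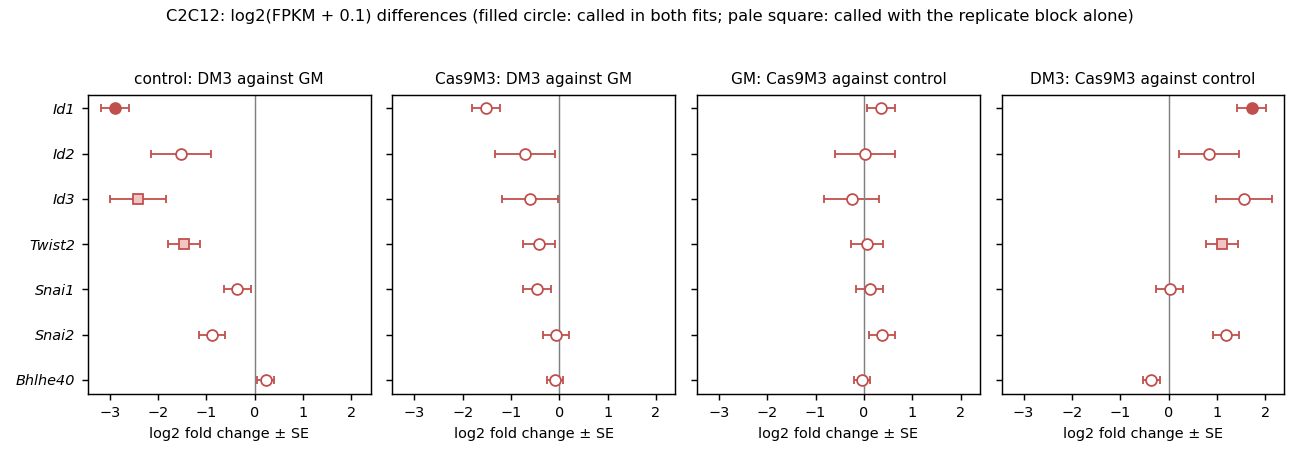
Log2 differences (x axis, ± SE, on the log2(FPKM + 0.1) scale) of the 7 tested genes in the 4 C2C12 comparisons, as filled circles where called in both fits and pale squares where called with the replicate block alone. Id1 is filled in control cells between DM3 and GM, at -2.89, and at DM3 between Cas9M3 and control cells, at 1.72.

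Muscle markers were highest in control DM3, where Id1, Id3 and Twist2 were lowest. The summed FPKM of Myod1, Myog, Des, Ckm and Myh3 was 22.2 to 42.6 in control GM, 198 to 229 in control DM3, 11.6 to 62.6 in Cas9M3 GM and 20.6 to 20.9 in Cas9M3 DM3. Myog was at 89.1 and 83.3 FPKM in control DM3 and 3.50 and 2.28 in Cas9M3 DM3. The study reports the opposite direction after Mettl3 inhibition: more myosin heavy chain protein, more fusion and, by qPCR, more fusion gene RNA on the third day. The reason for this disagreement was not tested, and it bears on every DM3 difference between the lines. T and NK cell markers were at 0 in all 8 libraries and endothelial markers at most 0.222 in sum. The part of the difference in differentiation in the repressors' levels was not tested.

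The Id to E protein ratio was lowest in control DM3 libraries. It was 5.48 and 12.6 in control GM and 0.948 and 1.54 in control DM3, against 6.31 and 11.7 in Cas9M3 GM and 4.19 and 6.17 in Cas9M3 DM3. Tcf12, an E protein, was at 9.70 and 6.88 FPKM in control GM, 19.0 and 16.2 in control DM3, and 9.29 and 8.16 in Cas9M3 DM3. Its DM3 difference between the lines was -1.0 ± 0.22 (adjusted p = 0.0798, and 0.0394 with the block). None of the 3 E proteins was called without the block at DM3. Myod1 was lower in Cas9M3 cells at DM3, by -2.80 ± 0.41 (adjusted p = 0.0337).

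**Figure D5:**
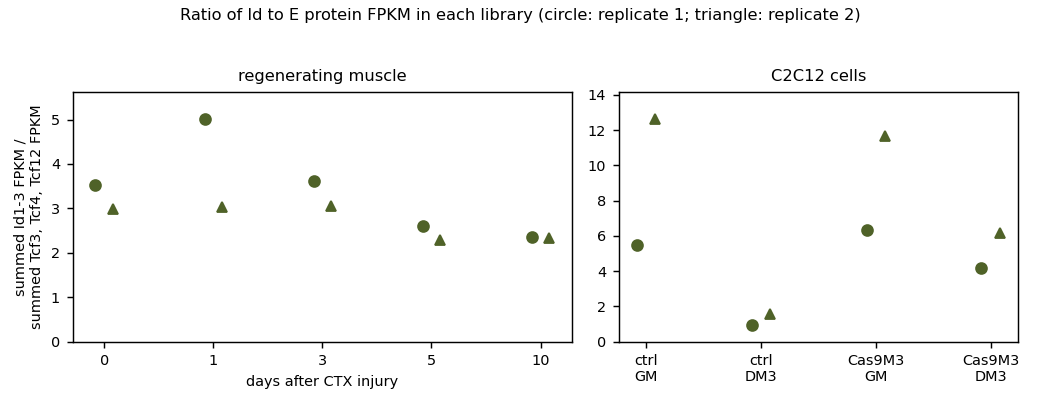
Summed Id1, Id2 and Id3 FPKM divided by summed Tcf3, Tcf4 and Tcf12 FPKM (y axis, linear from 0, separate for each panel) in each library of muscle by day and of C2C12 cells by group. Control DM3 libraries are lowest, at 0.948 and 1.54, and Cas9M3 DM3 libraries are at 4.19 and 6.17.

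Of the 25 BMP and Smad genes, 19 were tested in C2C12 cells. In Cas9M3 cells at DM3, 3 were higher and none lower, where 1.29% of all tested genes were called higher and 0.687% lower. The 3 were Smad6 at 1.87 ± 0.23 (adjusted p = 0.0262), Smad7, the other inhibitory Smad, at 1.68 ± 0.24 (adjusted p = 0.0327), and the BMP pseudoreceptor Bambi at 3.04 ± 0.46 (adjusted p = 0.0367). Bambi was at 0.0287 and 0.0355 FPKM in control DM3 and 0.806 and 1.19 in Cas9M3 DM3. It met the filter of 0.5 FPKM through Cas9M3 libraries alone, so its call adds no support to the count. Its control DM3 values lay below the pseudocount of 0.1, on which the size of its difference depends. The list's median was 0.48 and that of all tested genes -0.05. Like Id1, Smad6 fell in control cells between GM and DM3, by -1.58 ± 0.23 (adjusted p = 0.0438). Smad6 read 6.92 and 7.37 FPKM in control GM, 2.33 and 2.32 in control DM3, 8.62 and 12.2 in Cas9M3 GM and 7.72 and 9.96 in Cas9M3 DM3, and the Cas9M3 libraries lay above the control libraries in each medium. The ligand Bmp4 was at 17.3 to 37.5 FPKM in the 4 control and 56.0 to 108 in the 4 Cas9M3 libraries, and was called in neither medium.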

How the data were processed

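RNA-seq was analysed in 18 of 26 libraries, 10 of TA muscle and 8 of C2C12 cells, and 8 overexpression libraries were not analysed here. Per the study's methods, alignment by the authors used HISAT2 (GRCm38), gene counting used featureCounts, and the FPKM values they deposited came from DESeq2. Versions were not given in the sources used here. Each table was scaled on its own, so tests were made within a table. Members were matched by symbol, and coordinates and lengths came from GENCODE M21 (GRCm38). FPKM values were tested with limma 3.58.1 in R 4.3.3 (lmFit, eBayes with trend) on log2(FPKM + 0.1), on genes at 0.5 FPKM or more in at least 2 libraries, with all groups of a table in 1 fit and Benjamini-Hochberg adjustment over all genes. Read numbers came from the steps of low values, of which at least 97.0% were within 0.05 of whole reads, and precision is limited to whole reads. The Snai2 muscle values were not whole at this length, and its reads are not given. With 2 against 2 libraries, an exact permutation test cannot fall below 0.333. The members, gene lists, markers and naming rules (all members, up to 2 called list genes per direction, 2 most similar genes) were chosen with earlier results of these data known. Smad7, Bmp4, Tcf4 and, in C2C12 cells, Tcf12 were named after their values were seen. The replicate block follows the correlations given with the C2C12 results, a pairing seen in the data and not stated in the labels. In these libraries the replicate number also goes with read depth and Gm23935 content. Fitting was checked on simulated data. Alternatives were another pseudocount, filter or scaling, the compared groups alone, a replicate block, a term for Xist, a fold threshold and each library left out.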

Additional observations from a re-analysis of the deposited data

How the results depend on the processing

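Of the log2 fold changes of named members, recomputed under every alternative, 796 values kept direction and side of the threshold, 94 lost their call, 39 gained one and 0 changed direction. The counts of members called moved more, and the cause was not tested except where an alternative uses fewer libraries or adds a fold threshold. Between Cas9M3 and control cells at DM3 (1 in the report), the count was 0 with a pseudocount of 0.01, without a filter on low values or with a log2 fold change of 2 required, 2 after quantile normalization, 5 with only the compared groups, and 2 with the replicate block. In control cells from GM to DM3 (1), it was 0 with only the compared groups and 3 with the replicate block. From day 0 to day 5 (5), it was 3 without a filter, after quantile normalization or with only the compared groups, and 0 with a term for Xist or the fold threshold. From day 3 to day 5 (1), it was 0 with a pseudocount of 0.01, without a filter, with the replicate block, the Xist term or the fold threshold, and 3 with only the compared groups. The Xist term gave 1 and the fold threshold 2 between days 1 and 3 (4), each gave 1 between days 3 and 10 (6), and the fold threshold gave 2 between days 0 and 3 (6).

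With each library left out, the counts ran from 0 to 3 for day 1 against day 0, 3 to 7 for day 3 against day 0, 0 to 5 for day 5 against day 0, 2 to 5 for day 3 against day 1, 0 to 2 for day 5 against day 3, 2 to 6 for day 10 against day 3, 0 to 5 for DM3 against GM in control cells, 0 to 1 in Cas9M3 cells, and 0 to 2 between the lines at DM3. The block without replicate 2 of control GM cells, chosen after seeing the data, gave 4 between the lines at DM3 and 1 in Cas9M3 cells. For day 10 against day 0, Cas9M3 against control cells at GM, and the difference of the differences, the count was 0 under all alternatives run.

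In muscle, same-numbered libraries did not all deviate together (correlations from -0.0187 to 0.2110 over 10 pairs of days), so the number does not pair them. A replicate block there added Bhlhe40 between days 1 and 3 (adjusted p = 0.0169) and between days 3 and 10 (adjusted p = 0.0419), and lost Snai1 between days 3 and 5 (adjusted p = 0.0564). In C2C12 cells the block changed no other call of a member than those given with the results. Each group has 2 libraries, the Xist term is set by the pair of day 3 alone, and Twist2, Twist1 and Msc, at a few reads in a table, could not be compared there.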

Other observations

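Other repressors of myogenic transcription were listed with the members, and 12 of 14 were tested in muscle. Between days 0 and 3, 5 rose and 2 fell in limma, where 24.5% of all tested genes were called higher and 24.3% lower. The list median was 0.52 on the log2 scale. Mdfi, which holds myogenic factors in the cytoplasm, was at 0.337 and 0.654 FPKM on day 0 and 4.85 and 6.14 on day 3, a rise of 3.27 ± 0.42 (adjusted p = 0.000830). Scx, a tendon bHLH factor that is also in the tendon marker list, went from 3.74 and 5.47 to 29.6 and 23.5 FPKM, a rise of 2.52 ± 0.53 (adjusted p = 0.00641). Tcf15, a bHLH factor of early somites and endothelium, fell by 2.16 ± 0.40 (adjusted p = 0.00371), and Snai3, the third Snail gene, by 1.41 ± 0.26 (adjusted p = 0.00372). Both Snai3 libraries of day 3, each at 1.37 FPKM, lay below all others, where Snai1 and Snai2 stood above their day 0 libraries.

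Of 9 cadherin and mesenchymal genes, 8 were tested in muscle and 6 rose on day 3, where 24.5% of all tested genes were called higher. The list median was 2.92. Postn, a matrix protein, was at 2.47 and 15.1 FPKM on day 0 and 139 and 103 on day 3, a rise of 4.26 ± 0.87 (adjusted p = 0.00556). Cdh2, N-cadherin, rose by 4.12 ± 0.42 (adjusted p = 0.000430), from 0.109 and 0.232 FPKM on day 0 to 4.06 and 4.99 on day 3. It met the filter of 0.5 FPKM through days 3 and 5 alone, so its call adds no support to the count. Its day 0 values lay near the pseudocount of 0.1, on which the size of its rise depends. In C2C12 control cells from GM to DM3, 1 of 7 tested genes of this list was called, Cdh15, the M-cadherin of muscle cells, higher by 4.49 ± 0.67 (adjusted p = 0.0438). Of the 7 other repressors tested there, Zeb1, a zinc-finger E-box repressor, was the 1 called, higher by 1.87 ± 0.27 (adjusted p = 0.0404). In that comparison 0.767% of all tested genes were called higher and 0.376% lower. Zeb1 was at 30.0 and 24.3 FPKM in control DM3 and 12.4 and 10.3 in Cas9M3 DM3, a difference of -1.25 ± 0.27 (adjusted p = 0.0785, and 0.0231 with the replicate block).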
